A study of Homo sapiens with 12 samples.

Results

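The genes described here are 9 enzymes of fatty acid synthesis and desaturation, chosen by name and matched by symbol and Ensembl identifier to the table of counts, which holds 58735 genes. They are ACLY and ACSS2, which supply cytosolic acetyl-CoA, ACACA and FASN, which turn it into palmitate, the elongases ELOVL6 and ELOVL5, and the desaturases SCD, FADS1 and FADS2. All 9 were measured in all 12 libraries, with at least 153 counts in each, and all 9 passed the filter on low counts in every comparison. RNA sequencing of polyA-selected RNA was performed in HEC-1A, an endometrial adenocarcinoma line of epithelial origin, and in T-HESC, an endometrial stromal line immortalized with telomerase. Each line was exposed to 15 µM AG-205 for 32 h. AG-205 is a compound in use as an inhibitor of the membrane protein PGRMC1. The paper concludes that AG-205 should not be treated as such an inhibitor. In its experiments, selected genes rose with AG-205 in both lines also after siRNA against PGRMC1. The controls of each line received the vehicle DMSO for the same time, in medium with serum and without added progesterone. This gave 4 groups of 3 libraries. The methods state that the RNA came from independent culture experiments. Each line stands for itself and not for endometrial epithelium or stroma in general.

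Cells build saturated fatty acids from acetyl-CoA. ACLY splits citrate exported from mitochondria and ACSS2 activates acetate, and both reactions deliver acetyl-CoA to the cytosol. ACACA (acetyl-CoA carboxylase) converts it to malonyl-CoA, and FASN joins these units into palmitate. ELOVL6 lengthens palmitate to stearate, and SCD places the first double bond in both, giving palmitoleate and oleate. FADS2, ELOVL5 and FADS1 act mainly on polyunsaturated fatty acids from the diet, which they desaturate and lengthen into arachidonic acid and related acids, the precursors of prostaglandins made by the endometrium. Most of these genes are textbook targets of the transcription factors SREBP-1 and SREBP-2, products of SREBF1 and SREBF2, which are released for processing when sterols are low and held back by INSIG1.

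The start regions of 3 of the genes are shown for orientation, since SCD and ACSS2 had the highest fold changes in HEC-1A and ACLY makes the same product as ACSS2 with a smaller one. The sequences are from RefSeq (GRCh38.p14), run 5′ to 3′ on the strand of the gene and stop before the first base of any annotated exon. Capitals mark matches to CCAAT, the letters bound by NF-Y, and to GGGCGG, the GC box bound by Sp1, on either strand, so that they read ATTGG and CCGCCC where the match is on the other strand. The stretch of SCD is chr10:100346983-100347232, that of ACSS2 (the second of 2 listed start sites) is chr20:34876362-34876571, and that of ACLY (the first of 2) is chr17:41919023-41919272 on the minus strand. The stretch of ACSS2 shown holds no CCAAT match, while that of its first start site, not shown, holds 1 CCAAT match and 1 GC box match.
SCD: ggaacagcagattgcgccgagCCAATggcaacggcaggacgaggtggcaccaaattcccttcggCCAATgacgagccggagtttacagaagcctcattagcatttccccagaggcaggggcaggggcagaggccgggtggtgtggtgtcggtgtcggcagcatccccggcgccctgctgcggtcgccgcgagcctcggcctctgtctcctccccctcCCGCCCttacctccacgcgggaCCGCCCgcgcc
ACSS2: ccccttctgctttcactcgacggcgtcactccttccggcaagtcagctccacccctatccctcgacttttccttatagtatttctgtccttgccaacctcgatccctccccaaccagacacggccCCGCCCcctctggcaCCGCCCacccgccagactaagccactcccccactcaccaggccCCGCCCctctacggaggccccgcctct
ACLY: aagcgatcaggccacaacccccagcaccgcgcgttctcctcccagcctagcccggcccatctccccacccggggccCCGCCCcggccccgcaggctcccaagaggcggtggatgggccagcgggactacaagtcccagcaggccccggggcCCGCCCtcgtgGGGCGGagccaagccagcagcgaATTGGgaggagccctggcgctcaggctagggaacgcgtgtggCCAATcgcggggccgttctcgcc

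Promoter windows of 300 bases, 250 before and 50 after a start site, were listed for 8 of the 9 genes, in 13 windows. On both strands, CCAAT was found in 8 of the 13 windows (of 6 genes) and GGGCGG in 10 of them (of 7 genes), whereas 34.6% and 45.0% of all 35116 listed windows held them. Windows of the same gene can overlap and share matches. CACGTG, an E-box, was found in the window of ELOVL5 only, against 7.26% of all windows. The sterol regulatory element in the form TCACNCCAC was found in none of the 13, against 1.13% of all windows. These 4 sets of letters do not overlap in the stretches shown, and a match is a description of the letters, not a site of binding.

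Total counts ranged from 7168542 to 15178276 per library. Levels are given as CPM, counts scaled by the TMM-adjusted library total over the 12 libraries. A log2 fold change is that of AG-205 against DMSO in edgeR's quasi-likelihood test, fitted within each line and given with its standard error (SE). A gene was called at an adjusted p under 0.05, over all genes tested, and a log2 fold change above 1. On the first principal component of HEC-1A, AG-205 and DMSO libraries lay on opposite sides. On that of T-HESC, AG-205 replicate 1 had a score of 89.3 and the other libraries had -37.9 to 2.77. The AG-205 effects on the 9 enzymes in T-HESC are therefore given with and without this library. Group means, markers and the other gene lists in T-HESC with AG-205 are given with it only. Summed over 7 epithelial markers, levels were 1431 to 1596 CPM in HEC-1A with DMSO and 2195 to 2233 CPM with AG-205. Among them 2 were called higher, CLDN4 (log2 fold change 1.22) and KRT19 (1.09), where 2.58% of all genes were. In T-HESC the sum was 222 to 388 CPM over both groups, with CDH1 at 3 counts or fewer in every library. With DMSO, 6 of the 7 were called lower in T-HESC than in HEC-1A, where 22.3% of all genes were. KRT19 was not, at a mean of 106 CPM in T-HESC and 100 CPM in HEC-1A (adjusted p = 0.457 by edgeR). KRT18 was at 155 CPM in T-HESC with DMSO. With AG-205, KRT19 was at 221 ± 38.6 CPM and KRT18 at 56.0 ± 38.5 CPM in T-HESC (SD, n = 3). Neither change was called (adjusted p = 0.312 for KRT19 and 0.664 for KRT18 by edgeR). The 8 stromal markers summed to 9.70 to 15.8 CPM in HEC-1A and to 13890 to 28570 CPM in T-HESC, while the 3 immune and 3 endothelial markers each summed to at most 2.71 CPM in any library. In bulk RNA, a change in the cells of a kind and a change in RNA per cell cannot be told apart.

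All 9 enzymes had higher levels with AG-205 in HEC-1A. SCD, ACSS2, ELOVL6 and FASN were called higher, 4 of 9, where 2.58% of the 14122 genes tested were called higher. The other 5, ACLY, ELOVL5, FADS1, FADS2 and ACACA, passed the adjusted p with log2 fold changes below 1, so that 9 of 9 passed without a fold limit, against 7.35% of all genes. In 1 joint fit of the 12 libraries SCD, ACSS2, ELOVL6 and ELOVL5 passed the adjusted p, while ACLY (0.413), ACACA (0.906), FASN (0.138), FADS1 (0.545) and FADS2 (0.678) did not. Every AG-205 library lay above every DMSO library for 9 of 9, against 16.4% of all genes. The median log2 fold change of the 9 was 0.98, beside 0.01 for all genes tested. In T-HESC the log2 fold changes were positive for all 9, with a median of 1.34 beside 0.02 for all genes, but the spread was wider (biological coefficient of variation 33.6%, against 10.1% in HEC-1A) and none was called by edgeR, where 0.0800% of genes were called higher.

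**Figure D1:**
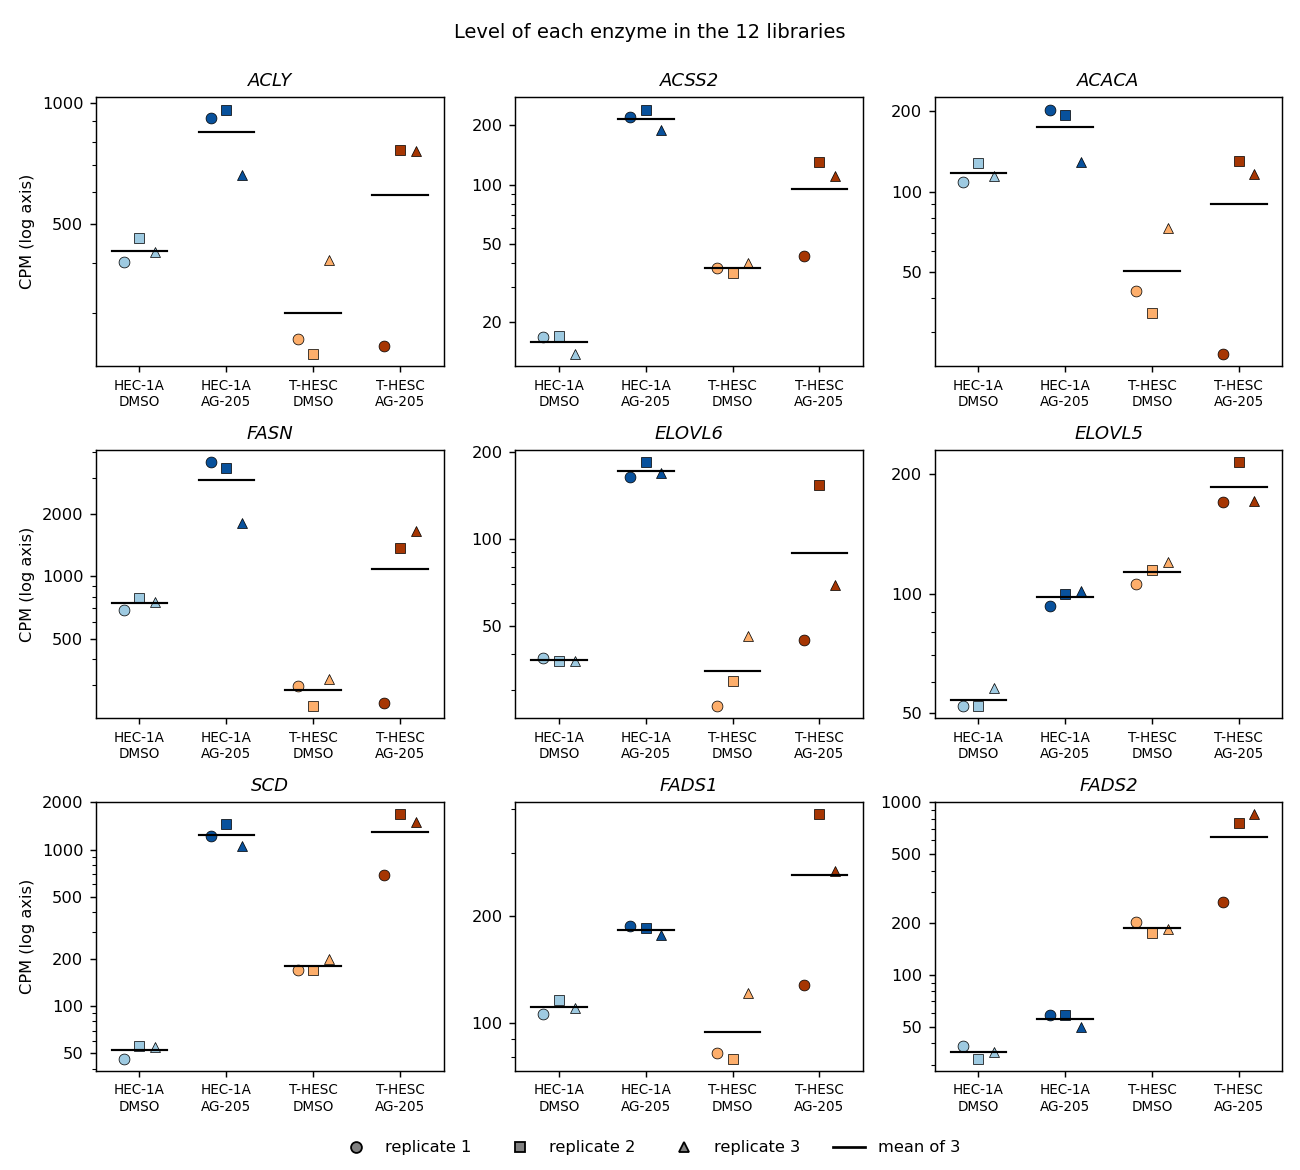
Level of each enzyme in CPM (log axis) in each of the 12 libraries, by cell line and treatment, with symbols for the replicate numbers and lines for the mean of 3. In HEC-1A the AG-205 libraries lie above the DMSO libraries for all 9 genes, and in T-HESC AG-205 replicate 1 (circles) is the lowest AG-205 library for all 9.

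Of the enzymes of acetyl-CoA supply, ACSS2 had the larger fold. ACSS2 (ENSG00000131069, chr20:34872146-34927962 of GRCh38, plus strand), acetyl-CoA synthetase of the cytosol and nucleus, was at 16.8, 17.1 and 13.7 CPM in HEC-1A with DMSO and at 220, 241 and 189 CPM with AG-205. The groups were far apart, and the log2 fold change was 3.77 (SE 0.126, adjusted p = 3.24e-09 by edgeR), a 13.7-fold rise. ACLY (ENSG00000131473, chr17:41866917-41930542, minus strand), ATP citrate lyase, was at 401, 461 and 424 CPM with DMSO and at 917, 964 and 663 CPM with AG-205, and its log2 fold change was 0.98 with an SE of 0.131 (adjusted p = 0.000424 by edgeR). This value sits at the fold limit, and ACLY was called in 4 of 15 settings, among them without AG-205 replicate 3 (1.13). Both sources of acetyl-CoA rose, and the rise of ACSS2 was the larger.

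In T-HESC, ACSS2 was at 37.7, 35.6 and 39.8 CPM with DMSO and at 43.2, 130 and 110 CPM with AG-205. All AG-205 libraries were above the DMSO libraries, replicate 1 by little, and the log2 fold change was 1.30 (SE 0.378, adjusted p = 0.522 by edgeR). ACLY was at 258, 237 and 407 CPM with DMSO and at 247, 765 and 761 CPM with AG-205. Here replicate 1 lay within the DMSO range, and the log2 fold change of 0.96 (SE 0.440) had an unadjusted p of 0.0611 and an adjusted p of 0.961.

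Of the enzymes of malonyl-CoA and palmitate synthesis, FASN had the larger fold in HEC-1A. FASN (ENSG00000169710, chr17:82078338-82098294, minus strand), fatty acid synthase, was at 691, 790 and 752 CPM with DMSO and at 3585, 3339 and 1813 CPM with AG-205. AG-205 replicate 3 was the lowest of its group but was still above every DMSO library, and the log2 fold change was 1.97 (SE 0.200, adjusted p = 4.46e-05 by edgeR), a 3.91-fold rise. In 1 joint fit of the 12 libraries FASN was not called (adjusted p = 0.138, the highest of its settings, against a lowest of 1.53e-78). ACACA (ENSG00000278540, chr17:37084992-37406836, minus strand) was at 109, 128 and 115 CPM with DMSO and at 202, 192 and 129 CPM with AG-205. AG-205 replicate 3, at 128.9 CPM, barely exceeded the highest DMSO library, at 128.0 CPM, and the log2 fold change was 0.58 (SE 0.144, adjusted p = 0.0217 by edgeR), or 0.74 without that library. ACACA no longer passed the adjusted p without DMSO replicate 1 (0.108), DMSO replicate 3 (0.0919), AG-205 replicate 1 (0.0951) or AG-205 replicate 2 (0.0610).

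AG-205 replicate 3 of HEC-1A had the smallest total count, 7168542, and was the lowest of its group for every enzyme other than ELOVL6 and ELOVL5. Relative to the other AG-205 libraries of HEC-1A, genes with transcripts under 1500 bases were higher in it (median deviation 0.185 in log2) and genes with transcripts of 8000 bases or more were lower (-0.254). FASN and ACACA, with canonical transcripts of 8464 and 10013 bases, belong to the long class. With a correction for transcript length, chosen after seeing the data, the log2 fold changes of FASN and ACACA were 2.02 and 0.65, and 5 of 9 enzymes were called higher in HEC-1A, with ACLY (1.01) beside the 4 named above.

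In T-HESC, FASN was at 297, 236 and 319 CPM with DMSO and at 246, 1378 and 1654 CPM with AG-205. ACACA was at 42.5, 35.2 and 73.4 CPM with DMSO and at 24.8, 130 and 116 CPM with AG-205. For both genes AG-205 replicate 1 was at or below the DMSO level and the other AG-205 libraries were clearly above it. The log2 fold change of FASN was 1.92 (SE 0.602, adjusted p = 0.596 by edgeR) and that of ACACA was 0.82 (SE 0.561, unadjusted p = 0.181, adjusted p = 0.993).

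The elongases differed in fold. ELOVL6 (ENSG00000170522, chr4:110045846-110199199, minus strand), which acts on palmitate, was at 38.6, 37.8 and 37.6 CPM in HEC-1A with DMSO and at 163, 185 and 169 CPM with AG-205. The libraries of each group lay close together, and the log2 fold change was 2.19 (SE 0.0931, adjusted p = 2.34e-08 by edgeR), a 4.55-fold rise. ELOVL5 (ENSG00000012660, chr6:53267398-53349179, minus strand), which acts on polyunsaturated acids, was at 52.0, 52.1 and 57.8 CPM with DMSO and at 92.8, 99.8 and 101 CPM with AG-205. Its log2 fold change of 0.86 (SE 0.0929, adjusted p = 7.75e-05 by edgeR) stayed below the fold limit in all 15 settings run.

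In T-HESC, ELOVL6 was at 26.3, 32.2 and 46.1 CPM with DMSO and at 44.6, 154 and 69.4 CPM with AG-205, so that the groups overlapped, with a log2 fold change of 1.34 and an SE of 0.451 (adjusted p = 0.670 by edgeR). Replicate 2 was the highest, and without it the log2 fold change of ELOVL6 was 0.67, against 1.65 without replicate 1. ELOVL5 was at 106, 115 and 120 CPM with DMSO and at 170, 215 and 171 CPM with AG-205. It was the enzyme for which AG-205 replicate 1 lay closest to the other AG-205 libraries, and its log2 fold change was 0.69 with an SE of 0.209 (adjusted p = 0.558 by edgeR).

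The desaturases held both the highest and some of the lowest folds in HEC-1A. SCD (ENSG00000099194, chr10:100347233-100364826, plus strand), stearoyl-CoA desaturase, was at 46.4, 55.5 and 55.3 CPM with DMSO and at 1229, 1450 and 1049 CPM with AG-205. Its log2 fold change was 4.57 with an SE of 0.143 (adjusted p = 2.23e-09 by edgeR), which is a 23.7-fold rise. Its pseudogene SCDP1 had 4 counts over all 12 libraries.

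FADS1 (ENSG00000149485, chr11:61799627-61829318, minus strand), the delta-5 desaturase, was at 106, 116 and 110 CPM with DMSO and at 187, 185 and 176 CPM with AG-205, with a log2 fold change of 0.72 and an SE of 0.0860 (adjusted p = 0.000175 by edgeR). FADS2 (ENSG00000134824, chr11:61792980-61867354, plus strand), the delta-6 desaturase, was at 38.7, 32.7 and 35.8 CPM with DMSO and at 58.3, 58.4 and 49.9 CPM with AG-205, with a log2 fold change of 0.64 and an SE of 0.104 (adjusted p = 0.00191 by edgeR). Both rose by less than the fold limit without overlap of the groups. By these coordinates FADS1 lies within the span of FADS2, on the opposite strand. The genes share 490 exon bases, 4.79% of the exon length of FADS1 and 4.64% of that of FADS2. FADS2 also shares 49 exon bases with FEN1 on the same strand. The sources used here do not give whether strand was used in counting, so a part of the counts of either gene could come from its neighbour.

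In T-HESC, SCD was at 172, 169 and 200 CPM with DMSO and at 684, 1684 and 1492 CPM with AG-205. The lowest AG-205 library was 684 CPM and the highest DMSO library 200 CPM, and the log2 fold change was 2.82 (SE 0.367, adjusted p = 0.0586 by edgeR), the smallest adjusted p of the 9 in this line. FADS2 was at 202, 174 and 185 CPM with DMSO and at 264, 759 and 852 CPM with AG-205, with a log2 fold change of 1.72 and an SE of 0.413 (adjusted p = 0.398 by edgeR). FADS1 was at 82.2, 79.4 and 121 CPM with DMSO and at 128, 386 and 268 CPM with AG-205, with a log2 fold change of 1.45 and an SE of 0.398 (adjusted p = 0.483 by edgeR). For these 3 desaturases the lowest AG-205 value exceeded the highest DMSO value.

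**Figure D2:**
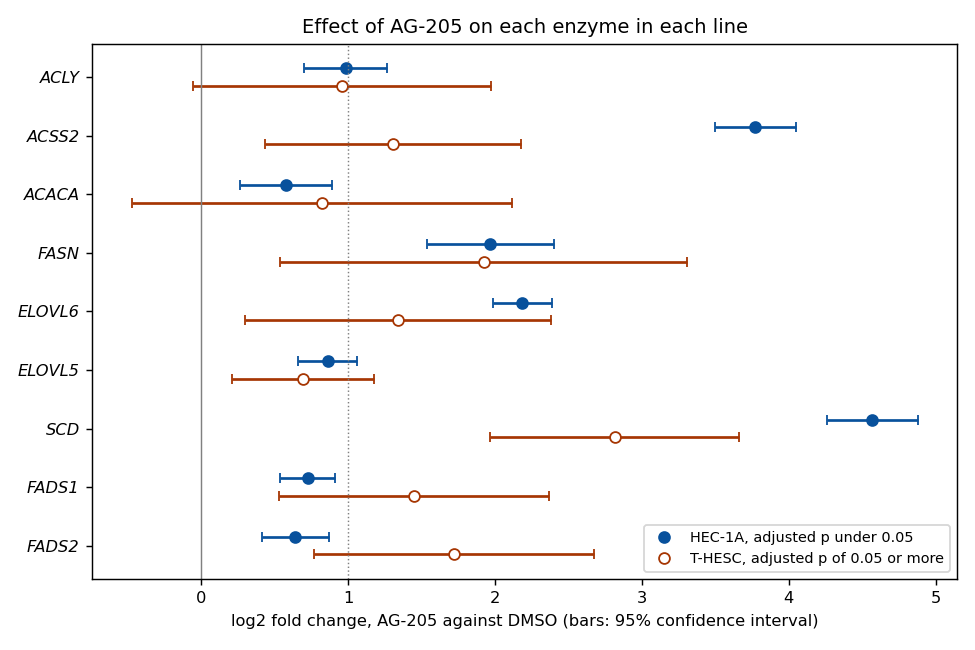
Log2 fold change of AG-205 against DMSO for each enzyme in HEC-1A (blue) and T-HESC (brown), with 95% confidence intervals from edgeR's test. Filled points passed an adjusted p under 0.05, which all 9 did in HEC-1A and none in T-HESC, and the dotted line marks the fold limit of 1 in log2.

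Over the enzymes, 0 of 9 were called in T-HESC by edgeR, while 7 of 9 had an unadjusted p under 0.05, against 3.58% of all genes with such a p and a higher level. ACLY and ACACA were the others. DESeq2 called 2, SCD and FADS2, where it called 0.341% of all genes with a count higher. Limma with library quality weights called 8, all but ELOVL5, where it called 1.67% of genes higher. That fit gave AG-205 replicate 1 a weight of 0.159, against 0.502 to 3.98 for the other libraries, so that this library counted for little. Every AG-205 library lay above every DMSO library for 5 of 9 (ACSS2, ELOVL5, SCD, FADS1 and FADS2), against 6.23% of all genes. The calls rest on the fit across genes, since exact permutation of 3 against 3 libraries allows no p below 0.1 for 1 gene.

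AG-205 replicate 1 had the lowest AG-205 level in T-HESC for all 9 enzymes. In that library the log2 ratio to the DMSO mean ranged from -1.02 (ACACA) to 1.92 (SCD), with a median of 0.36, and 5 of 9 enzymes were above every DMSO library. In replicates 2 and 3 the median ratios were 2.02 and 1.51, and 9 of 9 were above. Genes with transcripts under 1500 bases were higher in replicate 1 than in the other AG-205 libraries (median 0.73 in log2) and those of 8000 bases or more were lower (-0.30). Without it, 5 of 9 were called higher, where 0.490% of all genes were: SCD (log2 fold change 3.11, adjusted p = 0.00113 by edgeR), FASN (2.39, 0.00491), FADS2 (2.08, 0.00491), ACSS2 (1.65, 0.00907) and FADS1 (1.77, 0.0316). The remaining 4 had log2 fold changes of 1.65 (ELOVL6, adjusted p = 0.139), 1.32 (ACLY, 0.0961), 1.27 (ACACA, 0.173) and 0.74 (ELOVL5, 0.208). Omitting any other T-HESC library gave 0 calls among the 9. Over all genes, those fits called 5 of 14143 higher when AG-205 replicate 3 was left out, and 0 in every other case. With so few calls over all genes, the 0 does not set the enzymes apart from other genes. In 15 settings SCD had an adjusted p of 5.1e-11 to 0.578 and was called in 6, and FASN had one of 9.3e-05 to 1 and was called in 3. FADS2 was called in 5, FADS1 in 4, ACSS2 in 3, ELOVL6 in 2, ACLY and ACACA in 1 and ELOVL5 in 0.

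**Figure D3:**
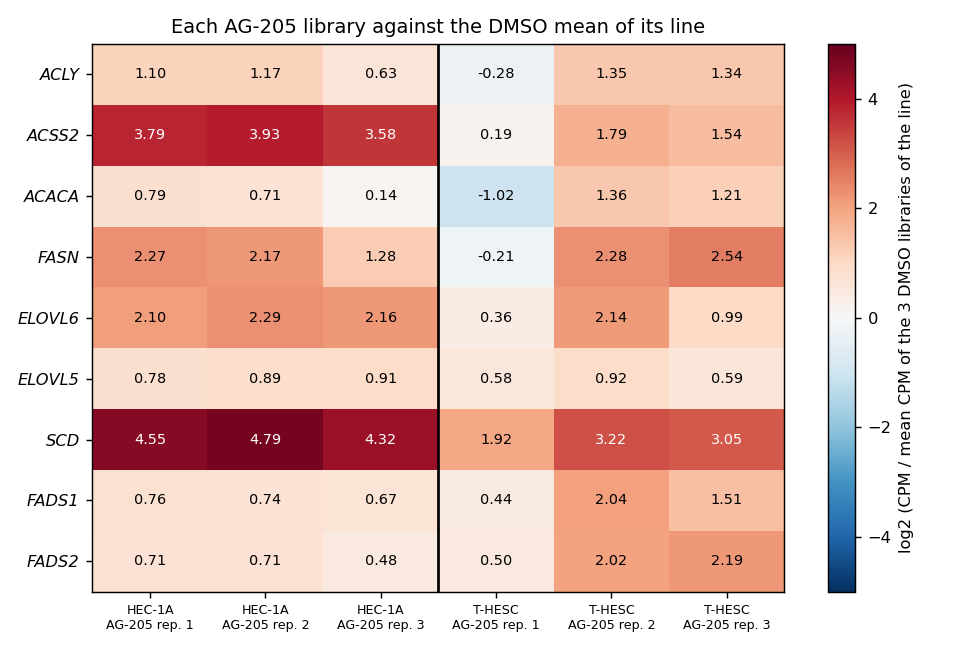
Log2 ratio of the CPM of each AG-205 library to the mean CPM of the 3 DMSO libraries of its line, for each enzyme (red, higher with AG-205). In each HEC-1A column ACSS2 and SCD are highest, with lower values of FASN, ACACA and ACLY in replicate 3, whereas T-HESC replicate 1 runs from -1.02 to 1.92 and T-HESC replicates 2 and 3 have medians of 2.02 and 1.51.

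Whether AG-205 acted with different size in the lines was tested as the difference of the effects, T-HESC minus HEC-1A, in a fit of all 12 libraries. None of the 9 was called by edgeR in either direction, where 0.174% of 16132 genes were, and 3 of 9 had an unadjusted p under 0.05, against 6.35% of all genes. The difference of ACSS2 was -2.45 in log2 (SE 0.435, 95% confidence interval -3.39 to -1.50, adjusted p = 0.0543 by edgeR) and that of SCD was -1.73 (SE 0.391, -2.58 to -0.88, adjusted p = 0.177). The difference of FADS2 had the other sign, 1.10 (SE 0.451, 0.12 to 2.08, adjusted p = 0.724). DESeq2 called 2 lower, against 0.163% of all genes with a count, and limma with quality weights called 2 lower and 2 higher, against 1.41% and 0.948% of genes. The weight of T-HESC AG-205 replicate 1 in the limma fit was 0.0896, against 0.282 to 3.52 for the other libraries.

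Without T-HESC AG-205 replicate 1, 3 of 9 differences were called, where 0.491% of genes were: ACSS2 (-2.10, adjusted p = 0.00063 by edgeR) and SCD (-1.43, 0.011) with a smaller effect in T-HESC, and FADS2 (1.47, 0.00222) with a larger one. Over 20 settings the difference was called in 7 for ACSS2 (adjusted p from 1.47e-09 to 0.217), in 5 for SCD (0.000211 to 0.576) and in 2 for FADS2 (0.00222 to 1). The intervals of the others, over all libraries, were wide. That of FASN ran from -1.54 to 1.49 around -0.02, that of ACLY from -1.10 to 1.09 around -0.01, and that of ACACA from -1.15 to 1.68 around 0.27. That of ELOVL5 was the narrowest, from -0.59 to 0.28 around -0.15. The differences of ELOVL6 (-0.83, -1.91 to 0.26, and -1.49 without T-HESC AG-205 replicate 2) and FADS1 (0.75, -0.20 to 1.69) also did not pass over all libraries by edgeR, so that equal effects were not shown for these genes. FADS1 was called in 1 of 20 settings, library quality weights (1.26, adjusted p = 0.00753 by limma). Without T-HESC AG-205 replicate 1 its difference was 1.075 (adjusted p = 0.108 by edgeR).

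With DMSO, the levels of some enzymes differed between the lines, as did those of many other genes. T-HESC had higher levels than HEC-1A of 4 of 9 enzymes, FADS2, SCD, ACSS2 and ELOVL5, where 22.3% of all genes were called higher. It had lower levels of 2 of 9, FASN and ACACA, a share close to the 22.3% of all genes called lower. FADS2 was at 187 ± 14.1 CPM (SD, n = 3) in T-HESC and 35.7 ± 2.99 CPM in HEC-1A, a log2 difference of 2.38 (SE 0.107, adjusted p = 1.72e-07 by edgeR). SCD was at 180 ± 17.3 CPM in T-HESC and 52.4 ± 5.20 CPM in HEC-1A, a log2 difference of 1.77 (SE 0.116, adjusted p = 1.73e-06 by edgeR). Both desaturases had no overlap between the lines with DMSO.

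ACSS2 and ELOVL5 differed by 1.24 (SE 0.124, adjusted p = 2.66e-05 by edgeR) and 1.06 (SE 0.0959, adjusted p = 1.36e-05 by edgeR) in log2 with DMSO. The ELOVL5 call was lost under upper-quartile scaling (0.90), where the median of all genes in this comparison was -0.17, against -0.015 under TMM scaling. FASN was at 284 ± 43.2 CPM in T-HESC and 744 ± 49.8 CPM in HEC-1A, a log2 difference of -1.40 (SE 0.129, adjusted p = 1.54e-05 by edgeR), and ACACA differed by -1.23 (SE 0.244, adjusted p = 0.00169). ACLY had a difference of -0.53 (SE 0.193, adjusted p = 0.0357 by edgeR), within the fold limit, which no longer passed without any 1 of the libraries other than T-HESC DMSO replicate 3 (adjusted p from 0.0639 to 0.120) or in the joint fit (0.236). ELOVL6 (-0.14, interval -0.57 to 0.29) and FADS1 (-0.25, -0.62 to 0.12) did not pass.

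After AG-205, SCD was at 1243 ± 201 CPM in HEC-1A and at 1287 ± 531 CPM in T-HESC (SD, n = 3), so that the groups overlapped although the DMSO levels did not. For ACSS2 the levels with AG-205 were 217 ± 26.0 CPM in HEC-1A and 94.6 ± 45.7 CPM in T-HESC, without overlap, whereas with DMSO the order of the lines was the opposite. FADS2 stood at 55.5 ± 4.84 CPM in HEC-1A and at 625 ± 316 CPM in T-HESC, in the same order as with DMSO. These levels were not tested between the lines.

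Levels of different genes were compared as CPM per kb of the Ensembl canonical transcript. In HEC-1A with DMSO the order was ACLY (99.9 ± 6.95), FASN (88.0 ± 5.88), FADS1 (25.4 ± 1.13), ELOVL5 (19.5 ± 1.21), ACACA (11.7 ± 0.978), FADS2 (11.6 ± 0.968), SCD (9.99 ± 0.991), ELOVL6 (5.78 ± 0.0776) and ACSS2 (5.50 ± 0.638 CPM per kb). ACACA, FADS2 and SCD overlapped with their neighbours in that order, as did ELOVL6 and ACSS2. With AG-205, FASN (344 ± 113), SCD (237 ± 38.3) and ACLY (198 ± 37.7 CPM per kb) led and overlapped with their neighbours, followed by ACSS2 at 75.2 ± 9.00, so that SCD and ACSS2 went from the lower ranks to places 2 and 4. FADS2 (17.97 ± 1.57) and ACACA (17.4 ± 3.98 CPM per kb) were the lowest.

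In T-HESC with DMSO, ACLY (70.0 ± 21.5) and FADS2 (60.5 ± 4.56) led and overlapped, followed by ELOVL5 (41.1 ± 2.56), SCD (34.4 ± 3.29) and FASN (33.5 ± 5.10 CPM per kb), of which SCD and FASN overlapped. ELOVL6 (5.31 ± 1.55) and ACACA (5.03 ± 2.02 CPM per kb) were the lowest and overlapped. With AG-205 the order was led by SCD (245 ± 101) and FADS2 (202 ± 102 CPM per kb), and all neighbours in the order overlapped. Ranks depended on the length used: by the merged exons of each gene FADS2 was rank 5 rather than 2 in T-HESC with DMSO, since its merged exons span 10553 bases and its canonical transcript 3091.

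**Figure D4:**
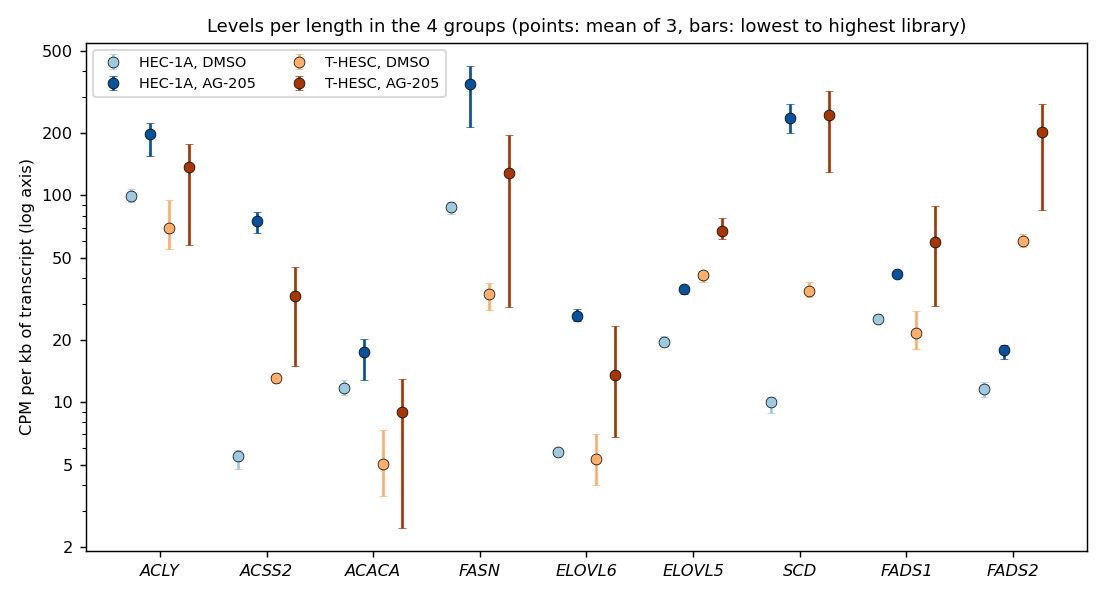
Level of each enzyme as CPM per kb of the Ensembl canonical transcript (log axis) in the 4 groups, as the mean of 3 libraries with bars from the lowest to the highest library. In HEC-1A, SCD moved from 9.99 to 237 and ACSS2 from 5.50 to 75.2 CPM per kb, and in T-HESC the bars with AG-205 are longer than those with DMSO.

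As a sum, the 9 enzymes made up 0.150 to 0.169% of the TMM-scaled library in HEC-1A with DMSO and 0.434 to 0.672% with AG-205. In T-HESC they made up 0.111 to 0.151% with DMSO and 0.185, 0.560 and 0.549% in AG-205 replicates 1 to 3. The composition of the sum moved as well. SCD gave 3.28 ± 0.181% of the CPM of the 9 in HEC-1A with DMSO and 21.4 ± 2.86% with AG-205, and in T-HESC 14.2 ± 0.980% and 31.4 ± 5.03% (SD, n = 3). FASN gave 46.6 ± 0.463% and 48.5 ± 6.15% in HEC-1A. SCD thus took a larger part of the pathway's reads with AG-205 in both lines, with no overlap of the groups.

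The other genes of the pathway are described by list. Of all genes tested in HEC-1A, 2.58% were called higher and 7.35% passed the adjusted p with a higher level. Among 8 other genes of carbon supply and malonyl-CoA, 5 were tested in HEC-1A and 2 were called higher, MID1IP1 (log2 fold change 1.32, SE 0.106, adjusted p = 5.87e-06 by edgeR), a protein that promotes polymerization of acetyl-CoA carboxylase, and SLC25A1 (1.06, SE 0.0988, adjusted p = 2.17e-05 by edgeR), the mitochondrial citrate carrier. The median of this list was 0.33. Among 11 other genes of the elongation cycle, 6 were tested and 1 was called higher, HSD17B12 (1.01, SE 0.118, adjusted p = 0.000155 by edgeR), the 3-ketoacyl-CoA reductase of the cycle, with a median of 0.20. Other elongases were not called, and the one with the largest fold change was ELOVL7 at 0.39 (adjusted p = 0.0539 by edgeR).

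Of 7 other desaturases and electron donors, 5 were tested in HEC-1A, none was called, and 2 passed the adjusted p below the fold limit, the cytochrome b5 gene CYB5B (log2 fold change 0.53, adjusted p = 0.00303 by edgeR) and FADS3 (0.41, adjusted p = 0.0178 by edgeR). Mitochondrial fatty acid synthesis, a separate pathway that makes lipoic acid precursors, had 0 of 6 genes called or past the adjusted p by edgeR, with 1 at an unadjusted p under 0.05 and lower, against 11.5% of all genes, and a median of -0.07. Fatty acid oxidation, which breaks fatty acids down, had 0 of 12 called or past the adjusted p, with 3 at an unadjusted p under 0.05 and higher, against 14.6% of all genes, and a median of -0.01. The 2 genes with the largest changes were MECR (-0.26, adjusted p = 0.115 by edgeR) and HSD17B8 (0.26, 0.239) of the former and ACADS (0.49, adjusted p = 0.419 by edgeR) and ACADVL (0.27, 0.0740) of the latter. With 7.35% of all genes past the adjusted p and higher, 0 of 6 and 0 of 12 do not set these lists apart.

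In T-HESC none of these 5 lists had a gene called by edgeR, where 0.0800% of all genes were called higher. With so few calls over all genes, this does not set the lists apart. Their medians were 0.28, 0.05, 0.12, 0.10 and -0.13 in the order above. SLC25A1 (0.61, unadjusted p = 0.0213 by edgeR) and HSD17B12 (0.55, 0.0345) were higher at an unadjusted p under 0.05, and SLC25A20 (-0.64, 0.0387) was lower. The 2 largest changes of carbon supply were those of ACACB (-0.91, adjusted p = 0.990 by edgeR), the mitochondrial carboxylase, and MID1IP1 (0.61, 0.993). Those of the elongation cycle were of HSD17B12 (0.55, 0.832) and HACD1 (0.53, 0.993). Those of the other desaturases and electron donors were of FADS3 (0.425, 0.993) and CYB5B (0.35, 0.993). Mitochondrial synthesis had NDUFAB1 (0.54, 0.993) and MECR (-0.32, 0.993). Fatty acid oxidation had SLC25A20 (-0.64, 0.858), its carnitine carrier, and ECI1 (0.49, 0.993).

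By edgeR, 2.58% of all genes tested were called higher with AG-205 in HEC-1A and 0.0800% in T-HESC. The transcriptional regulators were measured at the RNA level only. Of 8 genes tested in HEC-1A, 2 were called higher, INSIG1 (log2 fold change 3.22, SE 0.116, adjusted p = 4.11e-09 by edgeR), which retains SREBP in the endoplasmic reticulum and is itself a target of SREBP, and MLXIPL (1.45, SE 0.171, adjusted p = 0.000163 by edgeR), which encodes the carbohydrate-responsive factor ChREBP, at 6.21 ± 0.267 CPM with DMSO and 16.8 ± 3.79 CPM with AG-205. SREBF2 passed the adjusted p below the fold limit (0.85, adjusted p = 0.000549 by edgeR), whereas SREBF1 was at 200 ± 3.33 CPM with DMSO and 200 ± 32.9 CPM with AG-205 (SD, n = 3). In T-HESC, INSIG1 was the only regulator called among 7 tested (3.13, SE 0.303, adjusted p = 0.0260 by edgeR). SREBF2 had a log2 fold change of 1.21 there (adjusted p = 0.703 by edgeR), and SREBF1 was at 135 ± 33.5 CPM with DMSO and at 117 ± 48.9 CPM with AG-205. MLXIPL had no count in any T-HESC library.

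**Figure D5:**
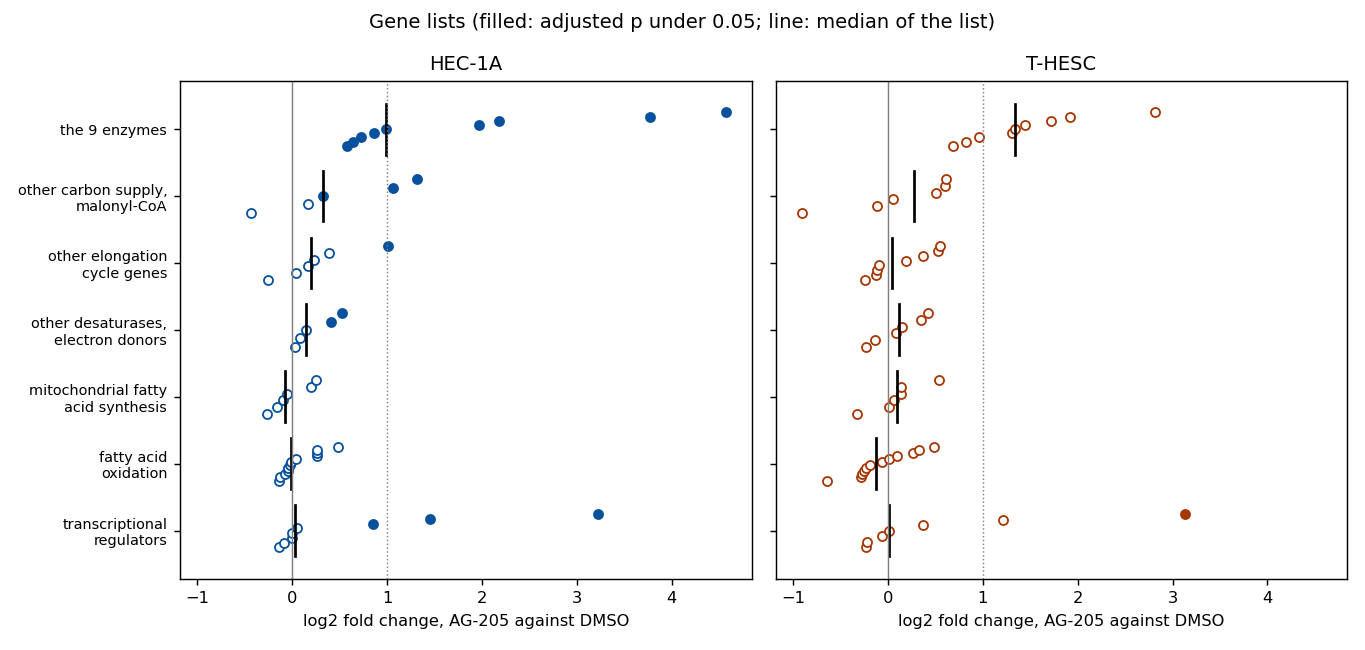
Log2 fold change of AG-205 against DMSO for the 9 enzymes and 6 other gene lists in HEC-1A (left) and T-HESC (right), where each point is a gene, filled points passed an adjusted p under 0.05 and black lines are the median of a list. The 9 enzymes have medians of 0.98 and 1.34, and fatty acid oxidation has medians of -0.01 and -0.13.

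Across the 12 libraries, after taking off the DMSO mean of each line, the genes most like each enzyme among 12008 genes tested in both lines were sought as a description. The points share line, treatment and the deviating libraries. The gene most like SCD was LPIN1 (r = 0.990 over 12 libraries), that most like ACLY was CYP51A1 (0.985), that most like ELOVL5 was ACAT2 (0.987) and that most like FADS1 was NPC1 (0.973). For ACSS2 it was RTN4 (0.981), for ACACA PTPDC1 (0.986), for FASN B4GALT5 (0.985), for ELOVL6 TNFSF9 (0.979) and for FADS2 SNN (0.974). Among the enzymes themselves ACLY and FASN were the closest pair (0.971), and ACSS2 and FADS2 were the least alike (0.428).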

How the data were processed

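PolyA-selected RNA of 12 cultures was sequenced in paired reads. The authors used Trimmomatic 0.38 for trimming and HISAT2 2.1.0 for alignment to GRCh38, counted reads per gene with featureCounts of Subread 2.0.0 on an Ensembl annotation, and the deposited values are raw counts without normalization. Strandedness and the handling of reads with several matches are not given in the sources used here.

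Counts were compared with edgeR 4.0.16 in R 4.3.3 (TMM scaling, filterByExpr, quasi-likelihood test, Benjamini-Hochberg adjustment over every tested gene: 14122 in HEC-1A, 13753 in T-HESC, 16132 for the difference of the effects and 14789 for the DMSO levels). The SE was derived from the F value. Printed CPM use TMM factors of all 12 libraries. Gene positions and lengths are from GENCODE 44 and promoters from RefSeq. Replicates of a group differed beyond sampling noise. Alternatives were DESeq2 1.42.0, RLE and upper-quartile scaling, other filters and thresholds, library quality weights (limma 3.58.1), a replicate block, one fit of all 12 libraries, leaving out single libraries and, chosen after seeing the data, a correction for transcript length. Python 3.11.15 and matplotlib 3.10.9 made the figures. The procedure was tested on simulated data.

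The enzymes, gene lists and tests were chosen with earlier results of these data known. All 9 enzymes are named. Of the other lists, genes called or the 2 with the largest absolute log2 fold change are named, and likeness is Pearson's r of log2 CPM with a prior count of 2. Columns of other samples were not present.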

Additional observations from a re-analysis of the deposited data

How the results depend on the processing

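In HEC-1A 9 enzymes passed without a fold limit in the fit of the line alone, and 3 to 5 were called under the other alternatives, against 4 in the report. Over all genes, these alternatives called from 135 of 16132 (joint fit) to 543 of 14461 (without AG-205 replicate 3) higher. In T-HESC, where 0 were called, DESeq2 called 2 higher (100 of 29303 genes), no filter on low counts 6 (145 of 29303) and library quality weights 8 (230 of 13753). The correction for transcript length called 1 (18 of 13753) and 1 joint fit of the 12 libraries 3 (133 of 16132). Omitting 1 library gave 0 to 5, where 0 to 69 of all genes were called higher. For the difference of the effects, quality weights called 2 higher (153 of 16132 genes) and leaving out 1 library gave 0 to 1 (0 to 39 genes). Lower effects in T-HESC numbered 2 with DESeq2 (57 of 34979 genes), 1 with upper-quartile scaling (23 of 16132) and 2 with no filter (87 of 34979). They numbered 2 with quality weights (227 of 16132), 2 with the length correction (23 of 16132) and 0 to 2 when leaving out 1 library (4 to 44 genes). The cause of these changes was not tested, except that fewer libraries or a wider pool of genes enter some of these fits.

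Differences near 0 changed sign. That of ACLY was 0.0364 with no filter and 0.40 with quality weights, and -0.25 to 0.36 when leaving out 1 library. That of FASN was 0.0259 and 0.20 under the same settings, and -0.45 to 0.45 when leaving out 1 library. That of ACACA ran from -0.10 to 0.72 and the DMSO difference of ELOVL6 from -0.35 to 0.0563 when leaving out 1 library, and that of ELOVL5 was 0.0163 with quality weights.

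Deviations of same-numbered libraries were not all correlated above 0.1 in either line (r from -0.0806 to 0.233 in HEC-1A and from -0.528 to 0.215 in T-HESC), and the sources used here do not say whether same-numbered libraries share a culture experiment, so the block was used as an alternative only. With the replicate block, 4 enzymes were called higher in HEC-1A (335 of 14122 genes), 0 in T-HESC (9 of 13753) and 0 for the difference (0 of 16132). For the DMSO levels 4 were called higher and 2 lower (3269 and 3325 of 14789 genes). Over all genes tested, SEs had a median of 0.325 in T-HESC and 0.133 in HEC-1A, so that effects in T-HESC are known less precisely.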
